A study of Mus musculus with 10 samples.

Results

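The 10 genes described here code for secreted, non-collagen proteins of the fibroblast matrix, and they were followed over all 10 libraries of the series: Postn, Bgn, Dcn, Lum, Ogn, Sparc, Fn1, Fbn1, Tgfbi and Lox. They were taken from a list of names matched to the Ensembl IDs of the deposited count table, a rule that reads no measured value, although the names were chosen with earlier results of these data known. All 10 were found among the 36191 genes listed and among the 15819 genes abundant enough to test. RNA sequencing had been carried out on mouse embryonic stem (ES) cells of the strain background 129x1 x 129S1 and on cultures derived from them by cardiac differentiation through hanging-drop embryoid bodies. The groups were wild type ES cells and Rybp-null ES cells at day 0, with 1 library each, and wild type and Rybp-null cardiac cultures at day 8 and at day 14, with 2 libraries each. Rybp codes for a component of Polycomb repressive complexes, and it was lost in the mutant at all 3 days. The labels name no line or clone, and nothing in them says that the 2 libraries of a group came from separate cultures, so the p-values measure only the spread between these libraries.

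The extracellular matrix is the protein scaffold that cells secrete around themselves. Collagen fibrils bear its load, small leucine-rich proteoglycans such as decorin coat the fibrils and space them, fibronectin and fibrillin build fibres of their own, and lysyl oxidase ties collagen and elastin together by cross-links. Matricellular proteins such as periostin and SPARC signal to cells rather than bear load, and in the heart they are made mostly by fibroblasts and valve mesenchyme, above all during development and after injury.

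Library totals ran from 3028153 to 6890792 counts. Rybp, the check of the labels, had at least 20.4 CPM (counts scaled to a common library total) in each wild type library and 1 to 4 counts, at most 1.21 CPM, in each null library. Markers of the labelled cell types were looked at as summed CPM over a list. The 10 pluripotency markers summed to 5797 CPM in wild type and 9659 in null cells at day 0. The 12 cardiomyocyte markers summed to 2227 and 2759 CPM in the wild type libraries of day 8 and to 982 and 1135 at day 14. In the null libraries they summed to 79.9 and 128 CPM at day 8 and to 209 and 265 at day 14, so the null cultures held little cardiomyocyte RNA. At day 0 the same list summed to 325 CPM in wild type and 134 CPM in null ES cells. The null sums of both later days thus lay below that of wild type ES cells. The 15 fibroblast markers, among them Col1a1, Col1a2, Col3a1 and Pdgfra, summed to 19.9 and 24.5 CPM at day 0. They reached between 2962 and 6277 at day 8 and between 10423 and 13147 at day 14. This list shares Col1a2 and Col3a1 with the collagen list described below. The collagen list summed to between 3121 and 6904 CPM at day 8 and between 11595 and 14748 at day 14. The part of collagen genes in the fibroblast sum was not tested. In such bulk RNA, more cells of a type and more RNA per cell cannot be told apart.

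Together the 10 matrix genes took 0.0558% of the counts of the wild type ES cell library and 0.0762% of the null one, and from 0.799% to 1.39% of each library of days 8 and 14. Sparc, Fn1 and Postn together supplied between 87.6% and 96.2% of the 10 genes' counts in every library. The makeup of those counts shifted with time. Postn gave 36.1% and 37.7% of them in the wild type libraries of day 8 and 22.3% and 26.2% in the null ones, but 6.58% and 9.97% in wild type and 2.82% and 9.93% in null cultures at day 14. Over the same step Sparc went from between 23% and 26.1% to between 47.2% and 56%.

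**Figure D1:**
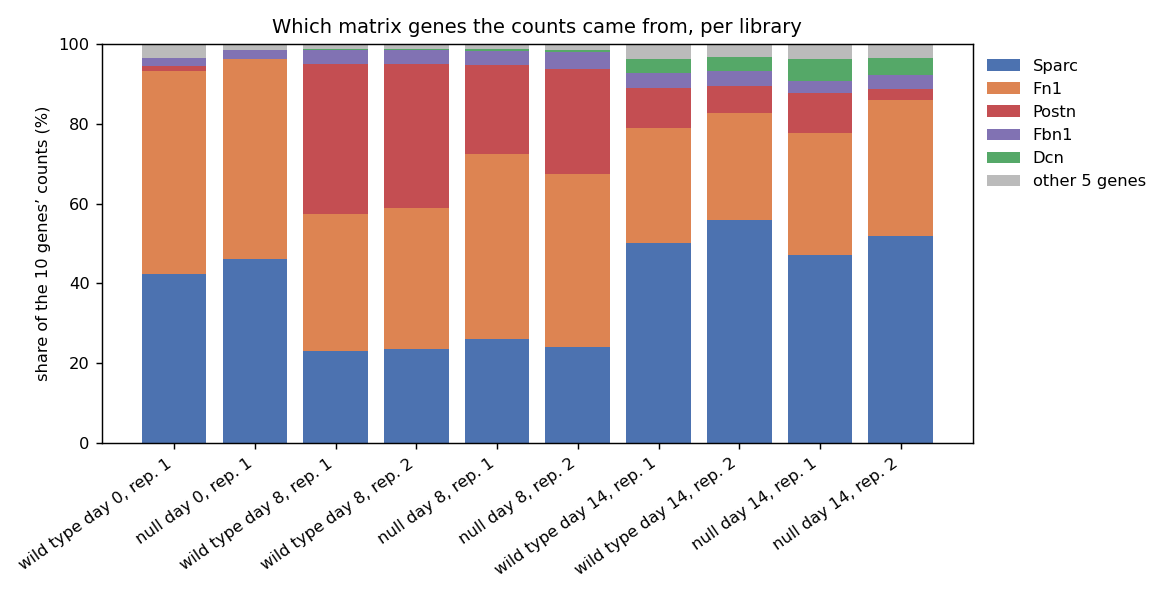
Share of the 10 matrix genes' summed counts that each gene supplied, in percent, for each of the 10 libraries; each bar is 1 library and adds to 100, and the grey part is Bgn, Lum, Ogn, Tgfbi and Lox together. Postn takes 22.3% to 37.7% of the bar at day 8 and 2.82% to 9.97% at day 14, when Sparc takes 47.2% to 56%.

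Levels were set side by side between genes after division by exon length, as CPM per kilobase of exon. That length merged all annotated exons of a gene, whichever transcripts were present, so the order of the genes depends on the annotation. On that scale Sparc was the highest of the 10 genes in all 6 groups, at 62.4 and 92.8 CPM per kilobase in wild type and null ES cells and at 1605 and 1589 at day 14. At day 8 the wild type order went on with Postn at 552 and Fn1 at 387. In null cultures Fn1, at 375, stood above Postn, at 267. The library ranges of Sparc, Postn and Fn1 did not overlap in either genotype. In null cultures the lower Fn1 library, at 296, lay just above the higher Postn library, at 293. Further down, Ogn and Lox overlapped in wild type, and Tgfbi and Lum in null cultures. At day 14 in wild type the order below Sparc was Fn1 at 271, Postn at 108, Dcn at 68.4 and Lum at 56.5 CPM per kilobase. Then came Fbn1 at 36.2, Tgfbi at 25.4, Bgn at 19.4, Ogn at 10.7 and Lox at 5.28, with no overlap between neighbours. In null cultures of day 14 the neighbours Dcn, Postn, Lum, Bgn and Fbn1, from 99.6 down to 32.4, overlapped pair by pair. The order within each such pair was not resolved. The library range of Dcn lay above those of Lum, Bgn and Fbn1. That of Postn lay above those of Fbn1 and, by 45.1 against 44.2, of Bgn. Ogn and Lox overlapped as well.

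**Figure D2:**
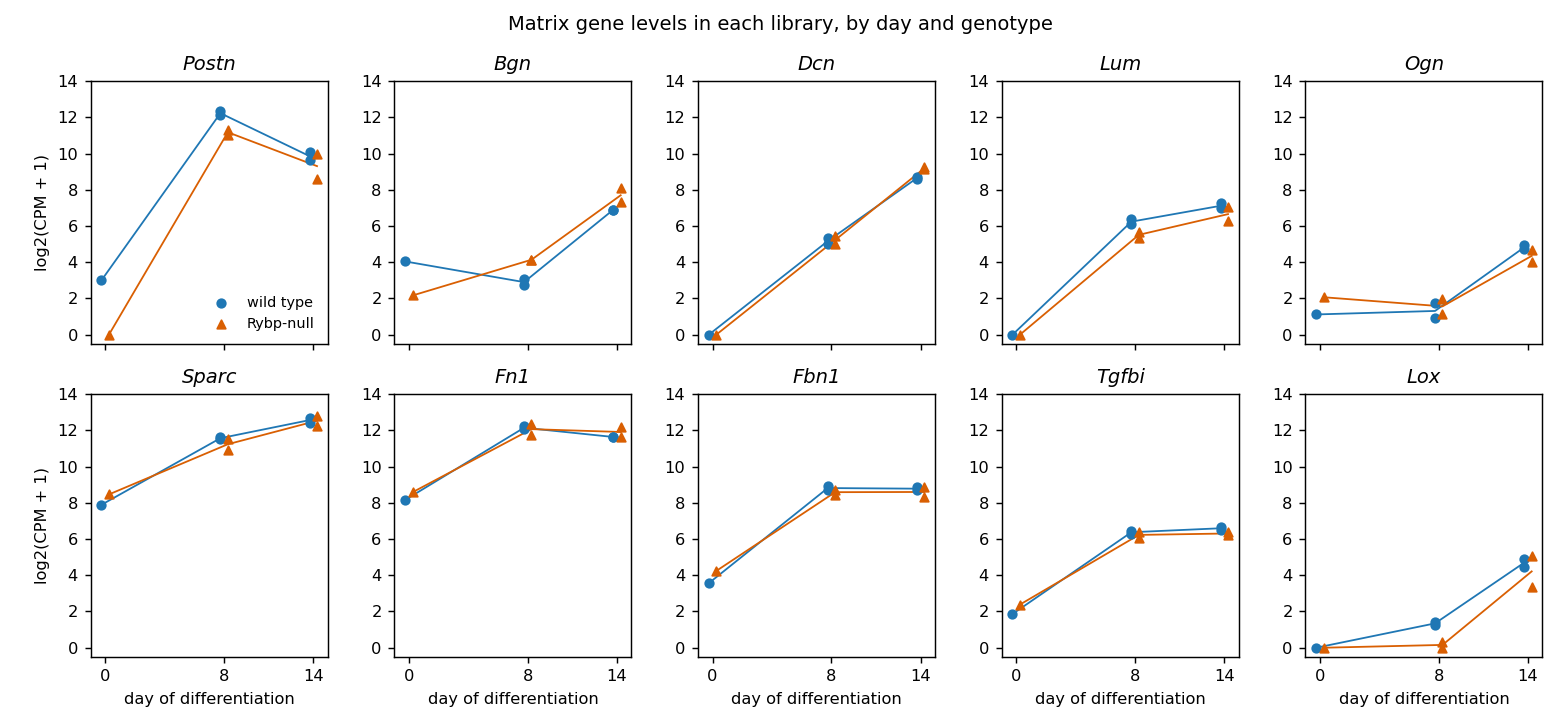
Level of each of the 10 genes as log2(CPM + 1) against day of differentiation, 1 point per library (circles wild type, triangles Rybp-null), with lines through the group means. Postn peaks at day 8; Bgn, Ogn and Lox climb mainly after day 8; Fn1, Fbn1 and Tgfbi reach their level by day 8; Bgn falls in wild type and rises in null between days 0 and 8.

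The first comparison asked how the matrix genes changed as ES cells became cultures of day 8. Calls were made with edgeR's quasi-likelihood test, for genes whose p after Benjamini-Hochberg adjustment over all genes tested lay below 0.05. In wild type, 7 of the 10 genes were called higher at day 8, where 21.2% of all genes tested were, and 1 was called lower, Bgn, where 19.3% were. In null cells 8 were called higher, against 19% of all genes, and none lower, against 18.6%. The DESeq2 test also called 8 members in each genotype, beside 5095 of the 15819 genes in wild type and 4545 in null cells. In each genotype 8 had an unadjusted p under 0.05 in edgeR, as had 49.4% (wild type) and 46.9% (null) of all genes. The 7 genes higher in wild type, Postn, Dcn, Lum, Sparc, Fn1, Fbn1 and Tgfbi, were all among the 8 of the null cells. The median log2 fold change of the 10 was 4.95 in wild type and 3.59 in null cells, beside 0.13 and 0.04 over all genes tested. With lower bounds in place of fitted values where day 0 held 0 counts it was 4.26 over 10 genes and 3.90 over 9. Each day 0 group was a single library, assumed in the fit to vary like the other groups.

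The second comparison, day 14 against day 8, called fewer genes. In wild type 5 of the 10 genes rose, Bgn, Dcn, Ogn, Sparc and Lox, where 2.47% of all genes did, and 1 fell, Postn, where 1.57% did. In null cultures 6 rose, the same 5 and Lum, where 4.29% of all genes did, and again Postn fell, where 3.41% did. All 6 calls of wild type were thus also made in null cultures, in the same direction. The median log2 fold change of the 10 was 0.93 and 1.19, beside 0.00 and -0.01 over all genes. Fn1, Fbn1 and Tgfbi passed in neither genotype.

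Markers of other cell types moved over the same step. Of the 8 macrophage markers, among them Csf1r, Cd68 and Lyz2, 7 were called higher at day 14 in wild type and 8 in null cultures. They summed to 99.4 and 59 CPM in wild type and 18.7 and 19 CPM in null cultures of day 8, and to 555 and 616 CPM and 207 and 228 CPM at day 14. Of the 13 fibroblast markers tested 3 and 4 were called higher, and 1 lower in null cultures. Of the 4 epicardial markers tested 1 and 3 were called higher, and of the 8 endothelial markers 1 and 4 were called lower, in wild type and null cultures. The epicardial list summed to between 38.9 and 190 CPM at day 8 and between 327 and 912 at day 14, and the endothelial list to between 386 and 560 and between 154 and 346. The part of these cell types in the rise of the matrix genes was not tested.

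**Figure D3:**
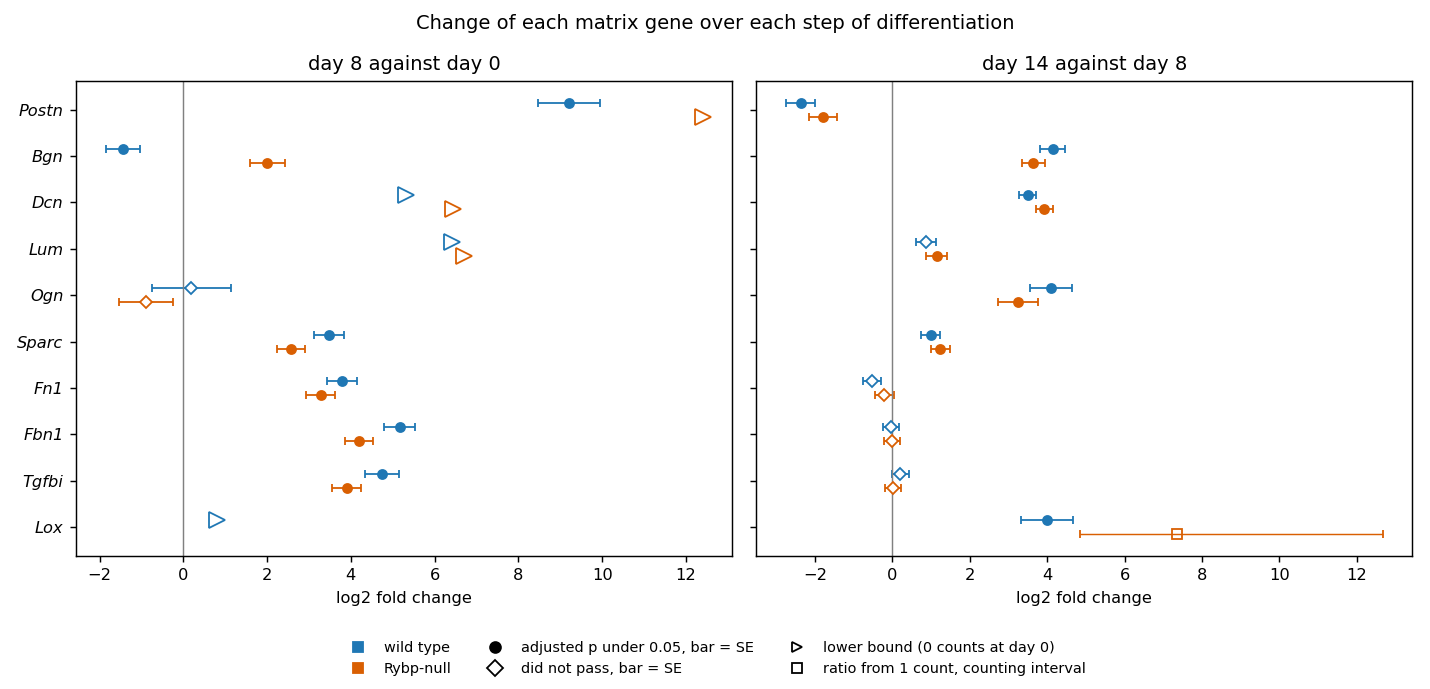
Log2 fold change of each gene from day 0 to day 8 (left) and from day 8 to day 14 (right), blue wild type and orange Rybp-null; filled circles passed the test, open diamonds did not, bars are standard errors, triangles are lower bounds where day 0 held 0 counts, and the square is a ratio from 1 count with its 95% counting interval. At the second step Bgn, Dcn, Ogn and Lox lie at 3.25 or above while Postn lies at -2.38 and -1.79; Lox in null cells at the first step has no fold and is not drawn.

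The matricellular gene Postn (ENSMUSG00000027750) codes for periostin, a secreted protein of developing valves, periosteum and healing tissue that binds collagen and integrins. It had 24 counts, or 7.02 CPM, in wild type ES cells and 0 counts in null ES cells. At day 8 it stood at 5221 and 4393 CPM in wild type and at 2550 and 2091 CPM in null cultures, so every wild type library lay above every null one. At day 14 it was back to 1093 and 783 CPM in wild type and to 1015 and 392 CPM in null cultures, and the genotypes overlapped.

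On the log2 scale, used for all fitted changes below, the day 8 rise of Postn was 9.20 (SE 0.75, adjusted p = 1.954e-05, edgeR) in wild type and at least 5386-fold in null cells, a bound taken against a floor of 3 counts for the library at 0. The fall to day 14 was -2.38 (SE 0.37, adjusted p = 0.00893) in wild type and -1.79 (SE 0.37, adjusted p = 0.01915) in null cultures. Postn was the only one of the 10 genes called lower at day 14, and it fell in both genotypes. The wild type call rested on few libraries: without wild type day 8 replicate 1 or 2, wild type day 14 replicate 2 or null day 8 replicate 1 or 2 its adjusted p lay between 0.05478 and 0.07405, with log2 fold changes from -2.48 to -2.17. The null call was lost without either null day 8 library, at -1.61 (adjusted p = 0.1852) and -1.95 (adjusted p = 0.1184).

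A 250-base window ahead of an annotated Postn transcription start is shown because Postn was the gene of the 10 that fell to day 14. Each window was searched on both strands for a core promoter element spelled TATAAA, the GC box with letters GGGCGG, the SMAD-binding core with letters CAGAC and the AP-1 site with letters TGANTCA, which are held by 12.4%, 32.7%, 42.2% and 6.75% of the 32851 windows of the same length in the RefSeq table. The letters of the SMAD-binding core can overlap the end of an AP-1 site, but no matches of different motifs overlapped in the windows shown. Sequences are from RefSeq on GRCm38.p6, 5′ to 3′ on the strand of the gene, with motif matches in capitals. RefSeq gave 2 windows for Postn. In the one shown, chr3:54360857-54361106 on the + strand, the capitals mark TATAAA, which begins 26 bases before the start; its GC content is 52%, beside a median of 52.4% over all windows. The other, chr3:54359017-54359266 on the + strand, holds no TATAAA but has CAGAC 191 bases before its start, and its GC content is 40.4%.
Postn: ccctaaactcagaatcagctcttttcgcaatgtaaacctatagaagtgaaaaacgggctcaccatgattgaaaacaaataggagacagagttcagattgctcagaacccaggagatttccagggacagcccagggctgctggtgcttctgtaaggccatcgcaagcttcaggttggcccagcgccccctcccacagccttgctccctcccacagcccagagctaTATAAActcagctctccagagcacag
A match is a description of these letters and not a sign of binding. Windows were kept for 6 of the 10 genes and none for Dcn, Lum, Fn1 and Lox. That does not mean that RefSeq lists no window for those genes.

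Sparc (ENSMUSG00000018593) codes for SPARC, or osteonectin, a collagen-binding matricellular protein that takes part in fibril assembly and is also plentiful in parietal endoderm. It had 236 CPM in wild type and 351 CPM in null ES cells. At day 8 it had 3180 and 2881 CPM in wild type and 2989 and 1931 CPM in null cultures, and at day 14 5491 and 6669 CPM in wild type and 4832 and 7204 CPM in null cultures. All 4 libraries of day 14 lay above all 4 of day 8, and the genotypes overlapped at both days.

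The first rise of Sparc was 3.47 (SE 0.36, adjusted p = 1.824e-05, edgeR) in wild type and 2.57 (SE 0.34, adjusted p = 0.0001187) in null cells. The second was 0.99 (SE 0.24, adjusted p = 0.04335) in wild type, close to the threshold, and 1.24 (SE 0.25, adjusted p = 0.009786) in null cultures. Leaving out any 1 of the 4 wild type libraries of days 8 and 14 ended the wild type call (adjusted p from 0.09346 to 0.3092), and leaving out null day 14 replicate 2 ended the null call (0.89, adjusted p = 0.06772). The 16 parietal endoderm markers, among them Lama1, Lamb1, Col4a1 and Sox17, summed to 2162 to 2444 CPM over the libraries of day 8 and to 2636 to 3808 CPM over those of day 14, with 14 to 16 of the 16 detected in each; their part in the Sparc values was not tested.

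Tgfbi (ENSMUSG00000035493) codes for a TGF-beta-induced adhesion protein that is a close relative of periostin. It had 2.63 and 4.21 CPM in wild type and null ES cells, 86.5 and 77.6 CPM in wild type and 83.6 and 65.4 CPM in null cultures of day 8, and 102 and 89.7 CPM in wild type and 73.7 and 82.8 CPM in null cultures of day 14. It rose with the first step by 4.74 (SE 0.40, adjusted p = 3.045e-06, edgeR) in wild type and by 3.90 (SE 0.34, adjusted p = 4.203e-06) in null cells. From day 8 to day 14 it differed by 0.21 (SE 0.21, adjusted p = 0.7082) in wild type and by 0.02 (SE 0.21, adjusted p = 0.9845) in null cultures. Neither passed, although both wild type libraries of day 14 lay above both of day 8. Tgfbi did not follow Postn down.

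Fbn1 (ENSMUSG00000027204) codes for fibrillin-1, the backbone of the microfibrils that hold latent TGF-beta and carry elastin. It stood at 10.8 and 17.8 CPM in wild type and null ES cells, at 477 and 422 CPM in wild type and 421 and 349 CPM in null cultures of day 8, and at 413 and 465 CPM in wild type and 321 and 465 CPM in null cultures of day 14. Its rise to day 8 was 5.16 (SE 0.36, adjusted p = 7.662e-07, edgeR) in wild type and 4.19 (SE 0.33, adjusted p = 1.615e-06) in null cells. The later values, -0.05 (adjusted p = 0.9534) and -0.02 (adjusted p = 0.9882), lay within the spread between libraries.

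Fbn1 and Tgfbi had the most similar course of any pair among the 10 genes. The root-mean-square difference of their centred log2 CPM over the 10 libraries was 0.22, computed with a prior count of 2. The windows of the pair are shown for that reason. In both the first capitals on the gene's own strand spell GGGCGG, 185 bases before the start in Fbn1 (chr2:125506439-125506688, - strand, 59.2% GC) and 124 before it in Tgfbi (chr13:56609336-56609585, + strand, 62.4% GC); the GTCTG capitals in Tgfbi are CAGAC on the opposite strand, 239 and 85 bases before the start.
Fbn1: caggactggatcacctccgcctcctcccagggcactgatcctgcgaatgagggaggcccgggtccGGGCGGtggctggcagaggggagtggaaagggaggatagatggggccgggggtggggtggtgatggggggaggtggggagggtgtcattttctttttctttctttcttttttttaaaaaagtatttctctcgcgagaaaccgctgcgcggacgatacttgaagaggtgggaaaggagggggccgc
Tgfbi: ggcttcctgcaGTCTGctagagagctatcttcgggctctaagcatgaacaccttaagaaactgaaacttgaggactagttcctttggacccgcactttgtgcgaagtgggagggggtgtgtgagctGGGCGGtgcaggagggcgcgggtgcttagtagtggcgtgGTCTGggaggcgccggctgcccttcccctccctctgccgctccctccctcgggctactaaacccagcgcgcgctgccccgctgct
Neither window holds TATAAA.

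Fn1 (ENSMUSG00000026193) codes for fibronectin, the adhesive glycoprotein on which other matrix is assembled. It had 284 and 382 CPM in wild type and null ES cells, 4757 and 4288 CPM in wild type and 5290 and 3463 CPM in null cultures of day 8, and 3153 and 3191 CPM in wild type and 3114 and 4735 CPM in null cultures of day 14. Its rise was 3.78 (SE 0.36, adjusted p = 8.486e-06, edgeR) in wild type and 3.28 (SE 0.34, adjusted p = 2.197e-05) in null cells. Among the 10 genes Fn1 varied least over the libraries (log2 SD 1.44, with a prior count of 2). The later values of Fn1, -0.53 (adjusted p = 0.2873) in wild type and -0.21 (adjusted p = 0.6843) in null cultures, did not pass.

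Dcn, Lum, Ogn and Bgn belong to the small leucine-rich proteoglycans. Dcn (ENSMUSG00000019929) codes for decorin, which binds collagen fibrils and TGF-beta. It had 0 counts in both ES cell libraries, 39.3 and 30.9 CPM in wild type and 43.2 and 30.6 CPM in null cultures of day 8, and 390 and 408 CPM in wild type and 561 and 602 CPM in null cultures of day 14. Every library of a later day lay above every library of the earlier one.

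The first rise of Dcn was at least 39.7-fold in wild type and at least 86.3-fold in null cells. The second was 3.49 (SE 0.22, adjusted p = 2.022e-05, edgeR) in wild type and 3.92 (SE 0.22, adjusted p = 5.571e-06) in null cultures, and it passed with any 1 library left out. Lum (ENSMUSG00000036446) codes for lumican, which shapes corneal and tendon fibrils and sits beside Dcn on chromosome 10. From 0 counts in both ES cell libraries it reached 82.2 and 67.6 CPM in wild type and 50 and 39.8 CPM in null cultures of day 8, at least 84.8-fold and at least 104-fold higher. At day 14 it had 152 and 124 CPM in wild type and 131 and 75.7 CPM in null cultures. That second step was 1.14 (SE 0.26, adjusted p = 0.01936) in null cultures and 0.87 (SE 0.26, adjusted p = 0.08843) in wild type, where it did not pass. The null call of Lum was lost without null day 8 replicate 2 (0.96, adjusted p = 0.07441) or null day 14 replicate 1 (0.73, adjusted p = 0.154).

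Ogn (ENSMUSG00000021390) codes for osteoglycin, or mimecan, another small proteoglycan. It was scarce through day 8, with 1.17 and 3.19 CPM in wild type and null ES cells, 2.31 and 0.859 CPM in wild type and 1.2 and 2.97 CPM in null cultures of day 8, each from 3 to 22 counts. By day 14 it had 25.1 and 29.6 CPM in wild type and 15.1 and 24.8 CPM in null cultures. No change was detectable at the first step (0.19, adjusted p = 0.8931 in wild type; -0.89, adjusted p = 0.3062 in null cells, edgeR). The second step lifted Ogn by 4.10 (SE 0.54, adjusted p = 0.001529) and 3.25 (SE 0.51, adjusted p = 0.002501).

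Lox (ENSMUSG00000024529) codes for lysyl oxidase, the copper enzyme that starts cross-linking of collagen and elastin. It had 0 counts in both ES cell libraries, 5 counts in each wild type library of day 8 (1.65 and 1.43 CPM), and 1 and 0 counts in the null libraries of day 8. At day 14 it had 21.3 and 29.1 CPM in wild type and 9.36 and 32.1 CPM in null cultures. All libraries of day 14 lay above all those of day 8.

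The wild type rise of Lox was 16-fold by the fit (SE 0.66 on the log2 scale, adjusted p = 0.005582, edgeR), and the call was lost without wild type day 8 replicate 1 or 2 or wild type day 14 replicate 2 (adjusted p from 0.0574 to 0.09703). In null cultures 158 counts stood against 1, a ratio of 164 (95% counting interval 29 to 6512, adjusted p = 0.0008812 in edgeR). Between day 0 and day 8 the 10 counts of wild type against 0 gave at least a 1.75-fold rise that did not pass (adjusted p = 0.1055), and the null libraries held too few counts for a fold.

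Bgn (ENSMUSG00000031375) codes for biglycan, a proteoglycan of bone, tendon and vessel wall that is encoded on the X chromosome. It had 15.5 CPM (53 counts) in wild type ES cells and 3.48 CPM (24 counts) in null ES cells. At day 8 it had 5.61 and 7.44 CPM in wild type and 16.6 and 16.6 CPM in null cultures, so the order of the genotypes was turned round. At day 14 it had 118 and 118 CPM in wild type and 158 and 270 CPM in null cultures, and the null libraries again lay above the wild type ones.

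From day 0 to day 8 Bgn fell in wild type by 1.44 on the log2 scale (SE 0.40, adjusted p = 0.01301, edgeR) and rose in null cells by 2.01 (SE 0.42, adjusted p = 0.002822). Without wild type day 8 replicate 1 the wild type call was lost (-1.25, adjusted p = 0.07192). From day 8 to day 14 it rose by 4.14 (SE 0.32, adjusted p = 6.146e-05) in wild type and by 3.64 (SE 0.29, adjusted p = 3.661e-05) in null cultures, which passed with any 1 library left out. The difference between the genotypes in the step from day 0 to day 8, a comparison chosen after the values were seen, was 3.45 (SE 0.59, adjusted p = 0.0617), where 0.0316% of all genes passed. The Bgn window is shown because Bgn was the one gene of the 10 called in opposite directions in the 2 genotypes. In chrX:73483351-73483600 (+ strand, 64.4% GC) the capitals are CCGCCC, which is GGGCGG on the opposite strand, found 3 times, 34, 10 and 6 bases before the start, of which the last 2 overlap.
Bgn: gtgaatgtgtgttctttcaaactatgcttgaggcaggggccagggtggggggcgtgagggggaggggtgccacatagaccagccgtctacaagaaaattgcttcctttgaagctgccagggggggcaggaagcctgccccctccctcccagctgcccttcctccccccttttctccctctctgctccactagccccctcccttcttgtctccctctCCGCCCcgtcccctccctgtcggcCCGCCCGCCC
It holds no TATAAA.

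The third comparison set Rybp-null against wild type cultures at each day. At day 8 none of the 10 genes was called in edgeR, where 0.506% of all genes were called higher and 0.759% lower. At an unadjusted p under 0.05 there were 4, Postn, Bgn, Lum and Lox, where 13.4% of all genes were. DESeq2 called 1, Bgn. At day 14 none was called, where 0.259% of all genes were called higher and 0.354% lower; 2 had an unadjusted p under 0.05, Bgn and Dcn, where 12.9% of all genes did, and DESeq2 called 0. The median log2 difference of the 10 genes was -0.16 at day 8 and -0.22 at day 14, beside 0.01 and -0.01 over all genes tested.

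By range, both null libraries lay above both wild type libraries at day 8 for 1 gene, Bgn, as for 20.1% of all genes tested, and below them for 4, Postn, Lum, Fbn1 and Lox, as for 21.8%. At day 14 they lay above for 2, Bgn and Dcn, as for 21.6% of all genes, and below for 2, Ogn and Tgfbi, as for 21.9%. With 10 genes these counts are small, and their distance from the shares over all genes was not tested. Bgn was the single gene of the 10 on the same side at both days.

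Bgn differed most among the genes with counts enough in both groups. The log2 difference, null over wild type, was 1.35 at day 8 (SE 0.34, adjusted p = 0.07794, edgeR) and 0.85 at day 14 (SE 0.25, adjusted p = 0.1598). At day 8 it passed in DESeq2 (1.34, adjusted p = 0.03705), without a filter on low counts (1.36, adjusted p = 9.4e-04) and without either null day 14 library (adjusted p = 0.02913 and 0.03476). Over 14 alternatives its adjusted p at day 8 ran from 9.4e-04 to 0.5454. At day 14 the Bgn difference passed without a filter on low counts (0.86, adjusted p = 0.01299, edgeR) and in no other alternative. The median over chromosome X, which carries Bgn, was 0.00 at day 8 and -0.05 at day 14.

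By the fit, wild type cultures of day 8 had 2.04 times the Postn of null ones, a log2 difference of -1.03 (SE 0.36) with an adjusted p of 0.2446. Without either null day 14 library, which were far apart for Postn, the day 8 difference passed (adjusted p = 0.01843 and 0.01809). Over 14 alternatives its adjusted p at day 8 reached 0.6758. At day 14 the difference was -0.44 (SE 0.36, adjusted p = 0.7016), and it went from -1.24 without null day 14 replicate 1 to 0.07 without replicate 2. The change of the Postn difference between the days was 0.59 (SE 0.50, adjusted p = 0.9459), and for Bgn it was -0.50 (SE 0.42, adjusted p = 0.9435). No member passed that interaction test in edgeR or in DESeq2, none had an unadjusted p under 0.05, and over all genes 0 passed in edgeR and 8 in DESeq2, with 962 at an unadjusted p under 0.05.

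Among the proteoglycans, Lum differed by -0.71 at day 8 (SE 0.26, adjusted p = 0.2447, edgeR) and by -0.44 at day 14 (SE 0.25, adjusted p = 0.5225), and neither passed. Dcn differed by 0.10 (SE 0.22, adjusted p = 0.8837) and 0.53 (SE 0.19, adjusted p = 0.2507). Ogn differed by 0.40 (SE 0.69, adjusted p = 0.8612) and -0.46 (SE 0.41, adjusted p = 0.7239). The proteoglycans thus did not share a sign at either day.

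None of Sparc, Fbn1, Tgfbi, Fn1 and Lox passed at either day in edgeR. Sparc differed by -0.28 (SE 0.24) at day 8 and -0.02 (SE 0.24) at day 14, Fbn1 by -0.20 (SE 0.21) and -0.17 (SE 0.21), and Tgfbi by -0.12 (SE 0.21) and -0.30 (SE 0.21). Fn1, which lies on chromosome 1, differed by -0.02 (SE 0.24) and 0.30 (SE 0.24), while the median over the 906 tested genes of chromosome 1 was 0.42 at day 8 and 0.41 at day 14; what part that shift has in the Fn1 value was not tested. Lox had 10 counts over both wild type libraries and 1 over both null libraries at day 8, so wild type was 11.5 times higher (95% counting interval 1.64 to 501), and at day 14 the difference was -0.27 (SE 0.50, adjusted p = 0.905).

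**Figure D4:**
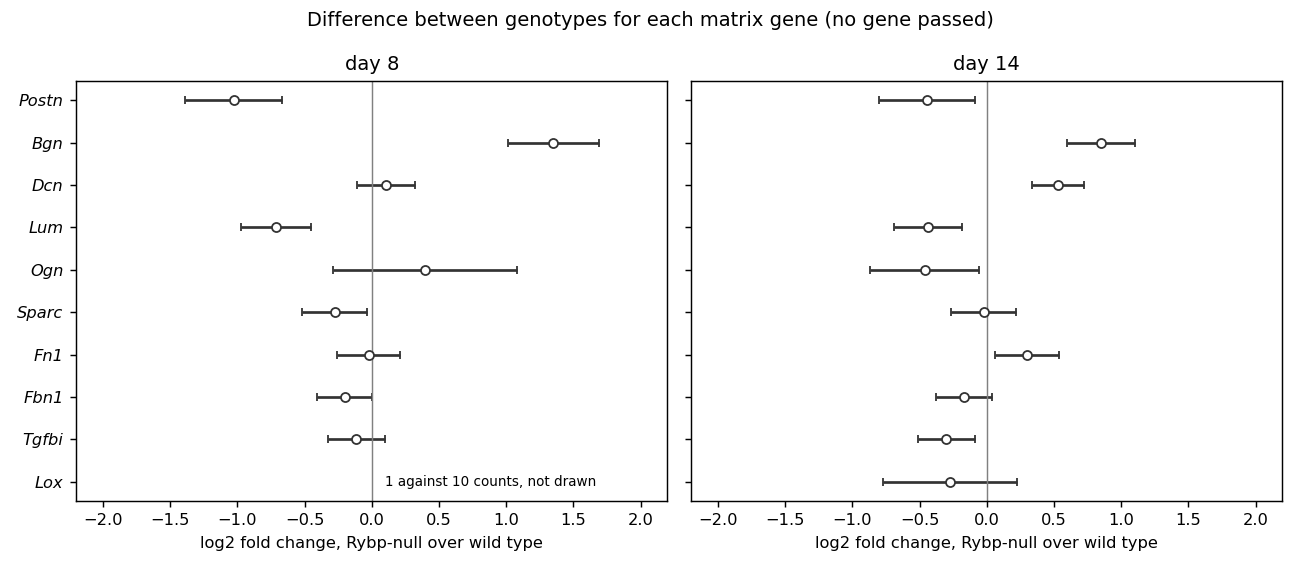
Log2 fold change of Rybp-null over wild type for each gene at day 8 (left) and day 14 (right), with bars for the standard error; none passed at an adjusted p under 0.05. Bgn lies highest at both days (1.35 and 0.85) and Postn lowest at day 8 (-1.03); Lox at day 8 rests on 1 count against 10 and is not drawn.

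Several matrix genes differed between the 2 null libraries of day 14. Postn was 2.59-fold and Lum 1.74-fold higher in replicate 1, whereas Lox was 3.43-fold and Bgn 1.71-fold higher in replicate 2. The 6 epicardial markers, Wt1, Tbx18, Upk3b, Msln, Aldh1a2 and Upk1b, summed to 327 CPM in replicate 1 and 903 CPM in replicate 2, beside 733 and 912 CPM in wild type at day 14. The 8 endothelial markers summed to 346 and 154 CPM in the same 2 null libraries. At day 8, null replicate 1 had 1.55 times the Sparc and 1.53 times the Fn1 of replicate 2, and its fibroblast markers summed to 6277 CPM beside 2962. The part of these cell types in the matrix values was not tested.

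At day 0, with 1 library per genotype, differences have no replicate check and intervals cover counting error only. Of the 5 matrix genes at 5 CPM or more in either library, 2 were at least 4-fold lower in null ES cells, Postn and Bgn, as were 0.775% of the 10450 such genes, and none was at least 4-fold higher, as were 1.64%. Postn was at least 16.1-fold lower, and wild type exceeded null 4.45 times for Bgn (95% interval 2.7 to 7.54). Sparc, Fn1 and Fbn1 were 1.49 (1.37 to 1.61), 1.34 (1.25 to 1.45) and 1.65 (1.13 to 2.45) times as high in null as in wild type ES cells. For Tgfbi, at 1.60 (0.737 to 3.84), and Ogn, at 2.73 (0.927 to 10.9), the intervals included equal levels. Dcn, Lum and Lox had 0 counts in both, which by the floor of 3 counts allows up to 0.877 CPM in wild type and 0.435 CPM in null ES cells. Of 8 other matricellular genes at that level, 2 were at least 4-fold lower in null ES cells and 0 at least 4-fold higher. The median log2 ratio of the 8 was -1.40. The 2 lower genes were Thbs1, a thrombospondin, and Tnc, or tenascin-C. Thbs1 had 23.1 and 2.47 CPM and Tnc had 10.8 and 0.871 CPM in wild type and null ES cells. Spp1, the gene of the list with the most reads, had 403 and 238 CPM.

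The other genes of the matrix pathway were taken as lists, to be read against the shares of all genes called at each step given above. From day 0 to day 8 all 11 genes of the collagen list rose in both genotypes. Among them Col1a2, a chain of type I collagen, rose by 8.58 in wild type and 9.80 in null cells on the log2 scale. Of the 16 elastic fibre genes 10 rose and 1 fell in wild type, and 11 rose and 1 fell in null cells. Fbn2, the fibrillin of the embryo, rose by 6.84 and 6.69. Of the 15 cross-linking and processing genes tested, 12 rose and 1 fell in wild type and 10 rose and 1 fell in null cells. Loxl2, of the lysyl oxidase family, was 112 times higher at day 8 in wild type (2 counts at day 0, 95% counting interval 30.9 to 930) and rose by 5.38 in null cells. Of the 14 other matricellular genes tested, 7 rose and 2 fell in wild type and 7 rose and 1 fell in null cells. Sparcl1, a relative of Sparc, rose from 1 count in each genotype, by a ratio of 68.2 (95% counting interval 12 to 2713) and of 145 (25.7 to 5782). Spp1, or osteopontin, fell by 7.29 in wild type and was 598 times lower at day 8 in null cells (204 to 2902, 3 counts at day 8). Of the 9 genes of TGF-beta signalling tested, 6 rose and 1 fell in wild type and 7 rose and 2 fell in null cells, with the ligand Tgfb2 at 4.86 and 7.02. Of the 7 other leucine-rich proteoglycans tested, 2 rose and 1 fell in wild type and 2 rose in null cells. The median log2 fold changes of these lists in wild type and null cells, with lower bounds where a day held 0 counts, were 4.74 and 5.6 for the collagens, 2.84 and 2.57 for the elastic fibre genes, 2.89 and 2.27 for the cross-linking genes, 2.44 and 2.68 for the matricellular genes, 1.07 and 0.86 for the other leucine-rich proteoglycans and 3.13 and 2.01 for TGF-beta signalling.

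From day 8 to day 14, of 7 other leucine-rich proteoglycans 3 rose in wild type and 4 in null cultures and none fell; Aspn, or asporin, rose 37.5 times from 2 counts in wild type (95% counting interval 10 to 315) and by 2.72 on the log2 scale in null cultures, Prelp by 4.61 and 2.95 and Fmod, or fibromodulin, by 2.57 and 2.33. Of the 11 collagens 6 rose in each genotype, among them Col6a1 (2.70 and 2.69) and Col6a2 (3.33 and 2.66). Of 16 elastic fibre genes 3 rose in wild type and 6 in null cultures; the latent TGF-beta binding protein Ltbp4 rose by 3.59 and 3.32 and Fbln2, or fibulin-2, by 2.02 and 2.76. Of 9 genes of TGF-beta signalling 2 rose and 1 fell in wild type and 3 rose in null cultures, with the ligand Tgfb3 at 2.41 and 3.08. None of 15 cross-linking and processing genes was called at this step in either genotype in edgeR; that list leaves out Lox. At an unadjusted p under 0.05 in edgeR there were 3 in wild type and 2 in null cultures, where 16.5% and 21.6% of all genes were. DESeq2 called 0 of them, where it called 607 and 1055 of the 15819 genes. The medians at this step were 1.42 and 2.33 for the other proteoglycans, 1.5 and 1.55 for the collagens, 0.63 and 1.21 for the elastic fibre genes, 0.42 and 0.64 for the matricellular genes, -0.14 and 0.46 for TGF-beta signalling and 0.38 and 0.34 for the cross-linking genes, on the log2 scale in wild type and null cultures.

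Of the 14 other matricellular genes 3 rose and 1 fell in wild type and 3 rose in null cultures. Thbs2, thrombospondin-2, rose from 3 counts and from 1 count by ratios of 21.2 (95% counting interval 6.97 to 106) and 73.6 (12.8 to 2949). Spp1 rose by 2.77 on the log2 scale in wild type and 15.9 times from 3 counts in null cultures (5.11 to 79.9), and Tnc rose by 1.58 and 1.51. Thbs4, thrombospondin-4, was left with 1 count in wild type, 41.6 times lower (7.04 to 1685). Of the 14 matrix receptor genes, integrin subunits and the collagen receptors Ddr1 and Ddr2, Itgav, a subunit of receptors for fibronectin and periostin, rose by 1.01 in wild type, Itgb3, its partner, fell by 2.41 in wild type, and Itga4 fell by 1.53 in null cultures.

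Between genotypes few of these genes passed. At day 8 Col5a2 was higher in null cultures (1.29) and Col14a1 lower (-1.48), and the lysyl hydroxylase Plod2 was lower (-0.76). Col5a2 lies on chromosome 1. At day 14 Col14a1 (-1.59) and the integrin subunits Itga4 (-1.69) and Itga8 (-1.62) were lower. No other gene of these lists passed at either day in edgeR; the lists of other proteoglycans, matricellular, elastic fibre and TGF-beta genes had none. At an unadjusted p under 0.05 these lists had 1, 3, 7 and 2 genes at day 8 and 2, 2, 4 and 3 at day 14, and DESeq2 called 1 elastic fibre gene at each day and none of the others. No fibroblast marker of 13 tested passed at either day (2 and 1 at an unadjusted p under 0.05, 0 in DESeq2), with medians of 0.14 (0.20 with a gene at 0 counts set at its bound) and 0.30, whereas 10 of 11 cardiomyocyte markers were lower at day 8 and 6 of 11 at day 14; the part of cell makeup in the matrix values was not tested.

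As a last description, the genes whose course over the 10 libraries was nearest to each member were sought by the root-mean-square difference of centred log2 CPM, a measure given without a test and with a prior count of 2, which sets the values of Postn, Dcn, Lum and Lox in libraries at 0 counts. Nearest to Fbn1 were Prickle1 (0.17) and Furin (0.19), and Furin was also nearest to Tgfbi (0.19). Nearest to Sparc was Osbpl5 (0.21), to Fn1 Smarca1 (0.21), to Lum Fbn2 (0.36), to Bgn C1ra (0.54) and to Dcn Ptn (0.78). Postn had no close neighbour: the nearest, Nrp1, lay at 1.39, followed by Igfbp5 at 1.49 and the smooth muscle actin Acta2 at 1.57.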

How the data were processed

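The authors deposited whole-number read counts per Ensembl gene, not normalized, for 10 libraries; TopHat, HTSeq, DESeq and the build mm9 are named per the submitters' processing notes, without versions, annotation release or strand setting, so reads of overlapping or antisense genes cannot be told apart. RNA was extracted with TRIzol and libraries made with NuGEN kits, per the labels' protocols. Symbols came from a gene name table (30946 IDs matched), and chromosomes and exon lengths came from GENCODE vM21 on GRCm38, which is not the files' build, so no gene coordinates are given; promoter windows were RefSeq's.

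From the deposited counts, edgeR 4.0.16 in R 4.3.3 was run on the 15819 genes kept by filterByExpr (minimum count 10), with TMM factors of 0.861 to 1.08 and a robust quasi-likelihood fit of 6 groups over all 10 libraries (4 residual degrees of freedom, common biological coefficient of variation 0.214). Tests were two-sided, with Benjamini-Hochberg adjustment within each comparison, a threshold of 0.05 and SE computed from the fold change and its F. CPM used library totals. Where a group pooled to 0 counts a fold is a bound, computed as if that group had held 3 counts in all, and for 1 to 3 counts an exact 95% interval of the ratio is given; both cover counting error only. Day 0 differences used a prior count of 2 and genes at 5 CPM or more.

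The fit was tested on simulated data. All 10 genes were named whatever their p; from the other lists at most 4 called genes per comparison, those with the largest change, could be named, and Rybp served as label check. The nearest genes of some members are not reported here. The members and lists were chosen with earlier results of these data known. Alternatives were edgeR with RLE size factors, DESeq2 1.42.0, no filter, the libraries of days 8 and 14 alone and a replicate block. Others were leaving out chromosomes 1, 6, 8, 14 and Y, leaving out each library, and a prior count of 0.5. Chromosomes 1, 6, 8 and 14 had a median log2 difference, null over wild type, of 0.30 at day 8 and 0.28 at day 14. The other autosomes had -0.04 and -0.07. The cause of that shift was not tested. Nothing in the labels said what libraries with the same replicate number share, so the main fit had no replicate block.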

Additional observations from a re-analysis of the deposited data

Results flagged for a closer look

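Bgn, the biglycan gene, moved in opposite directions from day 0 to day 8 in every library of the 2 genotypes: from 15.5 CPM to 5.61 and 7.44 CPM in wild type, and from 3.48 CPM to 16.6 and 16.6 CPM in Rybp-null cells. The difference of the steps was 3.45 on the log2 scale (SE 0.59, adjusted p = 0.0617, edgeR), and it was chosen after the values were seen. It passed in DESeq2 (3.52, adjusted p = 3.138e-04), without a filter on low counts (3.42, adjusted p = 1.742e-07) and without null day 14 replicate 1 or 2 (adjusted p = 0.01674 and 0.02361), and the adjusted p reached 0.2598 over the 12 alternatives. Each day 0 value is a single library, of 53 counts in wild type and 24 in null cells. No other gene of the 10 had every library of one genotype moving up and every library of the other moving down over that step.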

How the results depend on the processing

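The numbers of genes called between genotypes moved with the settings. At day 8 the 200 genes became 708 without a filter on low counts, 100 without chromosomes 1, 6, 8, 14 and Y, and 28 to 324 without 1 library. At day 14 the 97 became 637 without a filter, 200 in DESeq2, 55 without those chromosomes and 14 to 301 without 1 library. The interaction of days 8 and 14, with 0, had 65 without a filter, 8 in DESeq2 and 0 to 2 without 1 library. The added interaction of days 0 and 8, with 5, had 273, 87, 1 without those chromosomes and 0 to 46. Day 14 against day 8 gave 1244 in wild type and 1892 in null cultures without a filter, and 108 to 935 and 613 to 1243 without 1 library.

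Signs turned only for differences that did not pass. Sparc at day 14 was 0.021 without those chromosomes. Without 1 library the log2 differences between genotypes ran, at day 8, from -0.21 to 0.35 for Dcn, -0.31 to 1.21 for Ogn, -0.67 to 0.026 for Sparc, -0.40 to 0.27 for Fn1 and -0.35 to 0.073 for Tgfbi. At day 14 they ran from -1.24 to 0.069 for Postn, -0.38 to 0.26 for Sparc, -0.075 to 0.60 for Fn1, -0.50 to 0.10 for Fbn1 and -1.48 to 0.36 for Lox. The Postn interaction ran from -0.21 to 1.10. Over time Ogn in wild type ran from -0.63 to 0.75 at the first step; at the second, Fbn1 ran from -0.15 to 0.046 in wild type and -0.35 to 0.25 in null cultures, where Fn1 ran from -0.58 to 0.16 and Tgfbi from -0.17 to 0.24. The causes were not tested.

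Replicate differences of the groups correlated between -0.21 and 0.16. With the replicate block 138 and 74 genes were called between genotypes at days 8 and 14, and 571 and 985 between days; Lum in wild type then passed (0.87, adjusted p = 0.04088) and Sparc in wild type did not (0.99, adjusted p = 0.07337). With crossed numbers, an alternative added after seeing the data, 1580 genes were called in null cultures. Without a filter Lum (0.87, adjusted p = 0.006336) and Fn1 (-0.52, adjusted p = 0.0224) also passed in wild type between days 8 and 14. At these depths genes under a few CPM, Lox and Ogn before day 14, have wide counting error.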
